A study of Mus musculus with 12 samples.

Results

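The regions described are the peaks of H3K4me3, trimethylation of lysine 4 of histone H3, that were called in mouse intestinal villi and overlapped no H3K4me3 peak called in crypts. They were chosen by measured values, namely the presence of a peak in the villi list and of no peak sharing at least 1 bp in the crypts list. By this rule 1591 of the 16977 villi H3K4me3 peaks (9.37%) were villi-only, out of 169081 peaks in the 10 lists of the series. The remaining 15386 villi peaks were shared with crypts, and 1101 of the 16489 crypts peaks were crypts-only. The study examined the clipping of histone H3 N-terminal tails during intestinal differentiation, and its ChIP-seq set crypts against villi of mouse small intestine for H3K4me3, H3K4me1, H3K27me3, H3K9me2 and H3K9me3, with an input for each compartment. Neither group carried a treatment or an allele named in the labels, and strain and age are not given in the sources used here. Villi were scraped from the tissue and crypts were released with EDTA, without sorting of cells, so both preparations can hold cells other than epithelium. There was 1 library per compartment and mark, so differences between the compartments rest on single libraries and carry no p-value.

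The intestinal epithelium is renewed from stem cells at the base of the crypts. Their progeny divide, move up onto the villi and mature mainly into absorptive enterocytes, which take up sugars, amino acids, lipids and minerals. H3K4me3 marks the start sites of active and of many poised genes, H3K4me1 marks enhancers and the flanks of promoters, and H3K27me3 is the mark of Polycomb repression. Promoters that carry both H3K4me3 and H3K27me3 are termed bivalent and are frequent at CpG-rich genes of developmental regulators. Clipping removes the tail that bears lysine 4, and in bulk chromatin a mark on fewer cells, less mark per cell and clipped tails cannot be told apart.

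Examples of villi-only sites are shown in 3 sets, promoters with few CpG, CpG-rich promoters and distal regions, with CpG dinucleotides in capitals, because the other marks and the genes differed between these sets. The first holds the 250 bases before the start site at promoters with fewer CpG than the median and a villi-only peak within 1 kb, from RefSeq on GRCm38.p6. Cd8a (chr6:71373177-71373426, plus strand) encodes a coreceptor of cytotoxic T cells and of many intraepithelial lymphocytes. Ptprc (chr1:138175306-138175555, minus strand) encodes CD45, found on all nucleated blood cells, and Gzma (chr13:113100982-113101231, minus strand) a protease of cytotoxic granules. Sprr2a2 (chr3:92250397-92250646, plus strand), a small proline-rich protein of the epithelium, had the highest-scoring villi-only promoter peak.
Cd8a: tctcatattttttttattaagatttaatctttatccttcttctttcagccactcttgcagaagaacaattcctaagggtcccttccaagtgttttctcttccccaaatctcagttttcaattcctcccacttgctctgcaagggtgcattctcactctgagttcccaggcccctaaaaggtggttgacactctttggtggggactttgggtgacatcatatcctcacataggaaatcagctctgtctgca
Ptprc: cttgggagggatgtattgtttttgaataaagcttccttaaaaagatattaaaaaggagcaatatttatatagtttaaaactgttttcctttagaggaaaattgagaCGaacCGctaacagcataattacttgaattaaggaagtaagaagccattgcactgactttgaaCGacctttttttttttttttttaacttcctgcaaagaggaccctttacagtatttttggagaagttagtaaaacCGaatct
Gzma: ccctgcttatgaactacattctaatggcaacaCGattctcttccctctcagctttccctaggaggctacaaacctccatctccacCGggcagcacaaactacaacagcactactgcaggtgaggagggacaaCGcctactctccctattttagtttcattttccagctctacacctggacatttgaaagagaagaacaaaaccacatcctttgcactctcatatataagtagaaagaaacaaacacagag
Sprr2a2: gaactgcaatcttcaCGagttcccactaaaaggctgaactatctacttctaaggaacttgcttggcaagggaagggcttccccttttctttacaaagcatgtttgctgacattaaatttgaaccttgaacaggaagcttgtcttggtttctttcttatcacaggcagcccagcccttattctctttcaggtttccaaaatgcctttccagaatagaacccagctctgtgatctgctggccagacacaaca
They held 0, 4, 3 and 1 CpG in that order, against a median of 6.00 (quartiles 2.00 and 16.0) in the same 250 bases of all 32851 RefSeq promoters, so Ptprc and Gzma were below the median but within the quartiles. RefSeq promoter sequences were matched by symbol for 255 of the 357 genes with a villi-only peak within 1 kb of a start site.

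The second set holds CpG-rich promoters at which the villi-only peak lay within H3K27me3. Lhx2 (chr2:38351058-38351307, plus strand) and Sox2 (chr3:34649745-34649994, plus strand) encode transcription factors of development, and Map1b (chr13:99516603-99516852, minus strand) a microtubule-associated protein of neurons. Lhx2 and Sox2 were chosen after their values were seen.
Lhx2: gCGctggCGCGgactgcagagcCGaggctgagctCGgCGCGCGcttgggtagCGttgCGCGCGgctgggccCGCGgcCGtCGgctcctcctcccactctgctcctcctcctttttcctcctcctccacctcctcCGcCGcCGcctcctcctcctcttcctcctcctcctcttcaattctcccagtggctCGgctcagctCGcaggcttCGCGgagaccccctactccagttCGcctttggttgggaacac
Sox2: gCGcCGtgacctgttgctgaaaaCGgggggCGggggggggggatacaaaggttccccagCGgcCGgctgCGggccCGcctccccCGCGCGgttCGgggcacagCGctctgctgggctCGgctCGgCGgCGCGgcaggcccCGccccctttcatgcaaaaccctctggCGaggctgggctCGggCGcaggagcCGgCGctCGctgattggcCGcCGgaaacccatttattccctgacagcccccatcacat
Map1b: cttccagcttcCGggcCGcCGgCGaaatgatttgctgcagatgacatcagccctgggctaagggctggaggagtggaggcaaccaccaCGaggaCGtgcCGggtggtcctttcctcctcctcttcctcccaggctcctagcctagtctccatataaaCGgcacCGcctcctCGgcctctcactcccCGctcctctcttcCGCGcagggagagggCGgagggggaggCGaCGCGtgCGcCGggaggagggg
These held 24, 27 and 19 CpG.

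The third set shows distal villi-only peaks, as the 300 bases around the centre of the peak on the plus strand of mm10. The peak in an intron of Elmsan1 (window chr12:84188676-84188975) had the highest score of all villi-only peaks. The peak 43105 bp from the start site of the kinase gene Src (chr2:157500644-157500943) was the highest with H3K4me1 in villi and none in crypts. Those at Slc15a1 (chr14:121494987-121495286), the peptide transporter PEPT1, and Apoa1 (chr9:46224716-46225015), an apolipoprotein of chylomicrons and HDL, stand for the peaks near genes of absorption.
Elmsan1: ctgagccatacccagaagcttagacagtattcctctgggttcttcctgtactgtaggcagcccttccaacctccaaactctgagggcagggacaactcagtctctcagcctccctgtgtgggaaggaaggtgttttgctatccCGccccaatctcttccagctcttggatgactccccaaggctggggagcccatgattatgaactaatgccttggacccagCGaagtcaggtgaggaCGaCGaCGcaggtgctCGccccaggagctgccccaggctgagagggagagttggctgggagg
Src: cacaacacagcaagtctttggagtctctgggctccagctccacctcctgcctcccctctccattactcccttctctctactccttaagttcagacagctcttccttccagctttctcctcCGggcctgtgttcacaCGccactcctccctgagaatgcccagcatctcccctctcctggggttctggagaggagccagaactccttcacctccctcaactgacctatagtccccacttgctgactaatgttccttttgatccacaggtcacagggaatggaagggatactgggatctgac
Slc15a1: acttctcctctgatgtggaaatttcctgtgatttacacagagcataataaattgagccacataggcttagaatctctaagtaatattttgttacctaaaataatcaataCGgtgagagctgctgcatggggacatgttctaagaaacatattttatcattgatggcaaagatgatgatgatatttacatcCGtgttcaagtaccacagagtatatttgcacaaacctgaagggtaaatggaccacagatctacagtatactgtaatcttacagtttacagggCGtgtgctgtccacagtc
Apoa1: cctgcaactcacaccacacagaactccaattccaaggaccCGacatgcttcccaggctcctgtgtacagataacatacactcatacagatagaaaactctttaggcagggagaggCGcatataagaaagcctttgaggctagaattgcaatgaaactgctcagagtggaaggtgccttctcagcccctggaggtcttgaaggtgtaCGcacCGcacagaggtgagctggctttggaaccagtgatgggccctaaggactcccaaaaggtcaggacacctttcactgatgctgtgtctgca
The 4 windows held 6, 2, 3 and 4 CpG.

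The villi-only peaks were low-scoring and narrow. Their score, taken as the −log10 p-value of the authors' peak caller, had a median of 14.3 (quartiles 11.7 and 18.4, highest 67.6), against 148 for the shared villi peaks. Their median width was 613 bp (quartiles 449 and 904, widest 4903) against 1596 bp. The highest of them reached the 37.5th percentile of the villi list. The villi-only share of the list was 56.3% (908 of 1612) at scores of 10 to 15, 32.7% (376 of 1151) at 15 to 20, 17.5% (226 of 1288) at 20 to 30, 5.27% (78 of 1479) at 30 to 50 and 0.0262% (3 of 11447) above. These values follow from the rule and are given as a description. Because the rule favours weak peaks, the villi-only peaks were set beside the shared villi peaks with a score under 30 where strength could bear on a share, a comparison added after the data were seen.

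**Figure D1:**
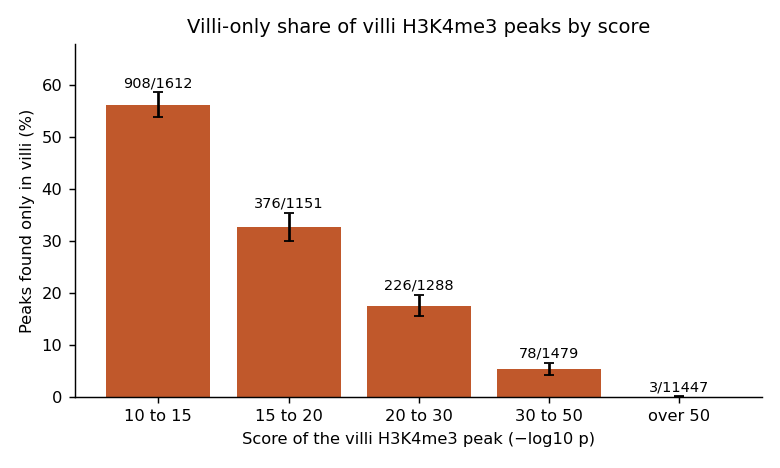
Share of villi H3K4me3 peaks found only in villi (y axis, %) by the score of the villi peak (x axis, −log10 p), with villi-only peaks over all peaks above each bar and 95% Wilson intervals, which cover counting error only. The share was 56.3% in the lowest class and 0.0262% in the highest.

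At the edge of the rule, the closest villi-only peak (chr8:27161230-27161928, score 16.8, nearest gene Rab11fip1) ended 9 bp from a crypts peak, and the next (chrX:100797722-100799306, score 13.5, nearest gene Dlg3) 116 bp from one. On the other side, the shared peak with the smallest overlap (chr2:57998876-57999706, score 10.2, nearest gene Galnt5) shared 16 bp with crypts. The median distance from a villi-only peak to the nearest crypts H3K4me3 peak was 11882 bp (quartiles 3977 and 35976), and 98 (6.16%) lay within 1 kb of one. Peaks are numbered in each list, and some numbers are missing from both (1355 in crypts and 1356 in villi). In 913 cases (57.4%) the crypts peaks on either side carried consecutive numbers, whereas in 664 (41.7%) at least 1 crypts number between them was left out, so whether a crypts call lay at the site cannot be told. Chromosome X held 20 villi-only peaks (4.59% of its villi H3K4me3 peaks), against 7.43 to 11.5% on the autosomes, and the 1 villi peak on the mitochondrial genome was villi-only.

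Most villi-only peaks lay away from start sites. Of the 1591, 358 (22.5%, 95% Wilson interval 20.5 to 24.6%) were within 1 kb of the start site of a protein-coding gene, against 72.0% of all villi H3K4me3 peaks and 77.1% of the shared ones. A further 201 (12.6%) lay over exons, 516 (32.4%) in introns and 516 (32.4%) outside protein-coding genes. The crypts-only peaks had 26.7% (24.2 to 29.4%) at promoters, with an interval that meets that of the villi-only peaks. They lay less often in introns (23.4%, 21.0 to 26.0%, against 30.2 to 34.8% for villi-only) and more often outside genes (40.2%, 37.4 to 43.2%, against 30.2 to 34.8%). At scores of 10 to 15 the promoter share was 21.9% (19.3 to 24.7%) of villi-only and 31.4% (28.1 to 34.9%) of shared villi peaks, so the gap was smaller among weak peaks, with intervals that did not overlap. A start site lay inside 185 villi-only peaks (11.6%, 10.1 to 13.3%), against 17.4% (15.3 to 19.8%) of crypts-only peaks, and distal villi-only peaks had a median distance of 12169 bp from the nearest start site (quartiles 5244 and 31628). With start sites of all biotypes 518 (32.6%) were within 1 kb.

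The distal villi-only peaks held fewer CpG than the other distal peaks. In the 300 bases around their centre the median ratio of observed to expected CpG was 0.269 (quartiles 0.174 and 0.414), against 0.462 for shared distal and 0.404 for crypts-only distal peaks. Restricted to scores under 30, it was 0.269 for villi-only and 0.416 for shared distal peaks. A search of both strands covered 12 motifs: HNF4 (CAAAGTCC), CDX (TTTATGG), the GATA family (AGATAAG), HNF1 (GTTAATNAT), KLF and SP (GGGCGGG), AP-1 (TGANTCA), ETS (CCGGAAG), PU.1-type ETS (GAGGAAG), RUNX (TGTGGTT), an interferon-stimulated element (GAAANNGAA), a TATA box (TATAAA) and CRE (TGACGTCA). The KLF and SP letters, which hold a CpG, occurred in 8.03% of distal villi-only windows, 17.1% of shared distal windows of all scores and 25.6% of all RefSeq promoters. HNF4 occurred in 2.76, 2.39 and 1.42%, CDX in 3.65, 2.84 and 2.75%, GATA in 4.87, 3.84 and 3.04% and AP-1 in 9.73, 8.01 and 7.81%, in the same order. In villi-only and shared distal windows, HNF1 occurred in 1.46 and 1.14%, ETS in 4.70 and 6.71% and PU.1-type ETS in 14.4 and 13.8%. RUNX had 5.43 and 5.00%, the interferon-stimulated element 11.4 and 11.7%, the TATA box 12.7 and 10.1% and CRE 0.324 and 1.02%. No match is a binding site by itself.

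H3K4me1 was present at most villi-only peaks in both compartments. It overlapped 1404 of them in villi (88.2%, 86.6 to 89.7%) and 1343 in crypts (84.4%, 82.5 to 86.1%), against 88.1 and 90.9% of all villi H3K4me3 peaks. In 1307 cases (82.1%) H3K4me1 was called in both compartments, in 97 (6.10%) in villi alone, in 36 (2.26%) in crypts alone and in 151 in neither. The balance was the other way at the shared peaks, where 562 (3.65%) had H3K4me1 in villi alone and 1085 (7.05%) in crypts alone. Crypts-only peaks had 34 (3.09%) in villi alone and 103 (9.36%) in crypts alone. H3K4me1 in 1 compartment alone thus leaned to villi at the villi-only peaks and to crypts at the shared and crypts-only peaks. Most villi-only peaks had it in both. Those at promoters had it less often, at 72.6% in villi and 62.0% in crypts, against 88.7 and 92.1% of shared promoter peaks. Crypts-only promoter peaks had 76.5 and 79.9%. At scores under 30, H3K4me1 was in neither compartment at 89 of 335 villi-only and 87 of 914 shared promoter peaks.

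H3K27me3 overlapped 234 villi-only peaks in villi (14.7%, 13.1 to 16.5%) and 199 in crypts (12.5%, 11.0 to 14.2%), against 11.2 and 9.62% of all villi H3K4me3 peaks. Crypts-only peaks had more, at 17.9% in villi and 15.3% in crypts. At scores of 10 to 15 the villi-only peaks had 14.3 and 12.6%, below the 24.1 and 20.3% of shared villi peaks. Both calls were made at 195 villi-only peaks, with 39 in villi alone and 4 in crypts alone. The villi list of this mark is the longer one, with 13797 peaks against 7611 in crypts. The average hid a division by position, since promoter peaks carried the mark far more often than distal ones.

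**Figure D2:**
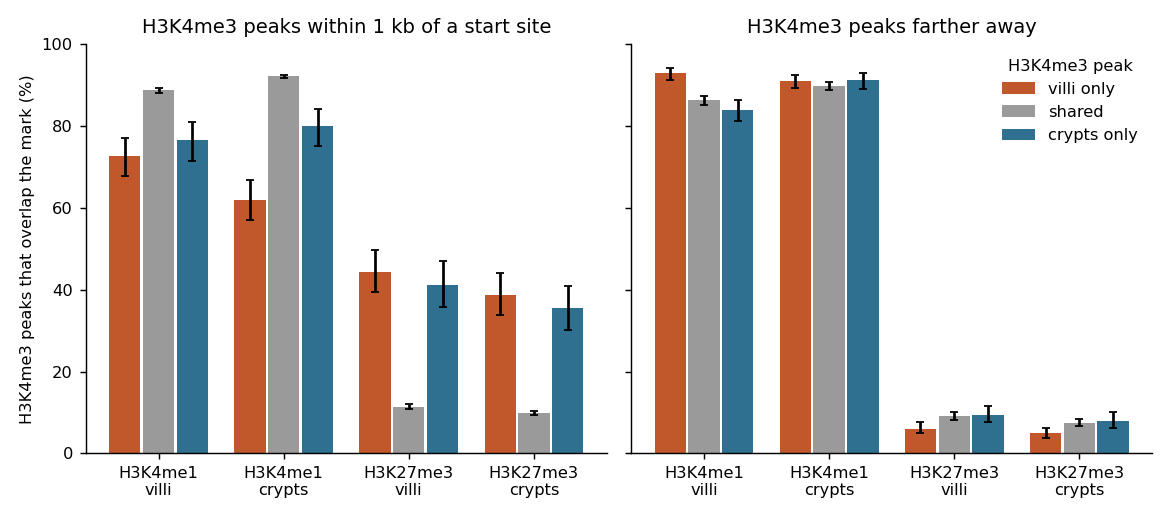
Share of H3K4me3 peaks (y axis, %) that overlap a peak of H3K4me1 or H3K27me3 in villi or in crypts (x axis), for peaks within 1 kb of a start site (left) and farther away (right). Bars stand for villi-only, shared and crypts-only H3K4me3 peaks with 95% Wilson intervals. Villi-only promoter peaks had H3K27me3 in 44.4% in villi, and villi-only distal peaks in 6.08%.

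The distal villi-only peaks sat in wide H3K4me1 regions that were called in both compartments. Of the 1233, 1031 (83.6%) overlapped H3K4me1 in villi and in crypts and no H3K27me3 in either. H3K4me1 was found at 1144 in villi (92.8%) and 1121 in crypts (90.9%). Of shared distal peaks with a score under 30, 9.40% had H3K27me3 in villi and 7.87% in crypts. Crypts-only distal peaks had it at 9.42 and 7.93%, and the distal villi-only peaks at 75 (6.08%) and 60 (4.87%). Where H3K4me1 was called in both, its peak was 3638 bp wide in villi and 3471 bp in crypts at the median, against list medians of 1312 and 1336 bp. By score these H3K4me1 peaks stood at the 86.2nd percentile of the list in villi and at the 86.2nd in crypts, and 564 of 1089 (51.8%) ranked higher in villi. At scores under 30, the shared distal H3K4me3 peaks had H3K4me1 widths of 2031 and 2388 bp and ranks of 74.9 and 79.5, and the crypts-only distal peaks of all scores had widths of 1682 and 2291 bp and ranks of 69.1 and 77.5. The medians of H3K4me1 rank were therefore alike in both compartments, although single regions differed in either direction. The measure of H3K4me1 rank was added after the data were seen, and a wide H3K4me1 peak is more likely to overlap any given site than a narrow one.

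The highest distal villi-only peaks varied in how H3K4me1 ranked. In the intron of Elmsan1, which encodes a subunit of a histone deacetylase complex, the H3K4me3 peak (chr12:84187542-84190109, score 67.6) lay in H3K4me1 peaks of 20466 bp in villi and 18846 bp in crypts, at percentiles of 95.7 and 96.8. The peak over an exon of Sema4a (score 49.2), a semaphorin, lay in H3K4me1 of 4187 and 4006 bp, at 91.7 and 89.3. The peak near Skil (chr3:31076356-31079916, score 41.0), an inhibitor of SMAD signalling, was among the 5 widest and lay in H3K4me1 of 4460 and 6498 bp, at 91.3 and 97.9. Rab4a, a GTPase gene (score 44.3), had 92.8 and 95.8, and Pitpna, a lipid transfer protein gene (40.8), 97.6 and 95.6. Rab4a, Pitpna and Bahd1 were named after their values were seen. H3K4me1 thus ranked similarly at these 5, whereas at 4 others with scores over 40 its rank in villi was well above that in crypts. The percentiles were 62.4 in villi and 22.7 in crypts near Tsku (score 49.6), which encodes a secreted proteoglycan. They were 47.7 and 10.5 at Stab1 (score 45.7), a scavenger receptor gene, 72.0 and 14.6 near Adck5 (45.5), and 37.7 and 11.3 near Bahd1 (40.7).

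A minority differed between compartments in H3K4me1 as well. The peak near Src (chr2:157500190-157501397, score 46.5) lay in a villi H3K4me1 peak of 4580 bp with none in crypts. Leaving aside a peak in a ribosomal RNA gene, described last, the next such distal peaks were in an intron of Gigyf2 (score 34.9, H3K4me1 2812 bp wide in villi), near Tnfsf9 (score 33.7, 415 bp) and near Rybp (score 32.9, 8738 bp). Gigyf2 is a regulator of translation, Tnfsf9 a ligand of activated T cells and Rybp a subunit of Polycomb complexes. At these 4 sites both marks of lysine 4 were called in villi and neither in crypts.

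Genes of nutrient absorption were often the nearest gene to a distal villi-only peak. Of 31 transporters of nutrients and ions, 9 (29.0%) were nearest to at least 1, of 29 brush border proteins and digestive enzymes 7 (24.1%), and of 30 genes of lipid absorption 8 (26.7%), against 1050 of 21842 protein-coding genes (4.81%). The crypts-only distal peaks were nearest to 1 (3.23%), 1 (3.45%) and 0 genes of these lists, with 3.37% of all genes. The shared distal peaks, which are more numerous, were nearest to 4 (12.9%), 8 (27.6%) and 9 of these genes, with 12.4% of all genes, so for brush border and lipid genes the share was no lower than that of villi-only peaks. Together the lists held 90 genes, of which 24 (26.7%) were nearest to 39 of the 1233 distal villi-only peaks (3.16%). The shared distal peaks with a score under 30 pointed to these genes in 12 of 1627 cases (0.738%) and the crypts-only in 2 of 807 (0.248%). Of the other epithelial lists, villi-only and crypts-only distal peaks were nearest to 4 (36.4%) and 2 (18.2%) of 11 villus tip genes and to 5 (15.6%) and 1 (3.12%) of 32 genes of xenobiotic metabolism. Shared distal peaks were nearest to 6 (54.5%) and 4 (12.5%) of these lists. Of 17 stem cell genes, 2 (11.8%) were nearest to villi-only, 4 (23.5%) to crypts-only and 7 (41.2%) to shared distal peaks. Of 28 intestinal transcription factors, 8 (28.6%) were nearest to villi-only, 6 (21.4%) to crypts-only and 21 to shared distal peaks, and no gene of the cell cycle list was nearest to a villi-only or crypts-only one.

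These 39 peaks had scores of 10.0 to 27.1 with a median of 15.5, and 20 lay within 10 kb of the start site. H3K4me1 was called at 36 in villi and 37 in crypts, and none overlapped H3K27me3 in either compartment. At the 35 with H3K4me1 in both, its median rank was 83.5 in villi and 90.8 in crypts, and 13 ranked higher in villi. Slc34a2, a phosphate transporter, was nearest to 5 villi-only peaks, which lay 24628 to 58270 bp from a start site. Of these, 3 lay along 1 villi H3K4me1 peak of 11307 bp (10887 bp in crypts), so they are not independent sites. Slc15a1 had 3, of which that at chr14:121493388-121496885 (score 14.9) was 3498 bp wide in an intron. The peak near Slc7a7, a basolateral transporter of cationic amino acids, had the highest score of the group (chr14:54401106-54403882, 27.1) and lay in H3K4me1 of 6403 bp in villi and 7139 bp in crypts.

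Among the other absorptive genes, Fabp2, the intestinal fatty acid binding protein, had peaks 16035 and 6249 bp from its start site (scores 24.0 and 10.9). Apoa1 had 1 at 3279 bp (score 23.9), in H3K4me1 of 6033 bp in villi and 4193 bp in crypts. Slc27a4, a fatty acid transport protein, differed in that H3K4me1 was called in villi alone (4839 bp, H3K4me3 score 25.9). Pls1, an actin-bundling protein of microvilli, and Enpep, a brush border peptidase, had 3 each, those of Enpep 18115 to 48683 bp from its start site. Dpp4, a brush border dipeptidyl peptidase, had 1 of 2952 bp in an intron. The nearest gene by distance need not be the gene a region acts on.

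The promoters of the same genes were marked in both compartments. H3K4me3 lay within 1 kb of a start site for 29 transporters in villi and 29 in crypts, for 28 and 28 brush border genes and for 27 and 28 lipid absorption genes. None of these 90 genes had promoter H3K4me3 in villi alone. Villi-only peaks lay near a start site of Mme, a brush border peptidase (974 bp, score 11.8), and over one of Abcg8, a sterol exporter (score 11.0), whose genes also had a crypts peak.

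**Figure D3:**
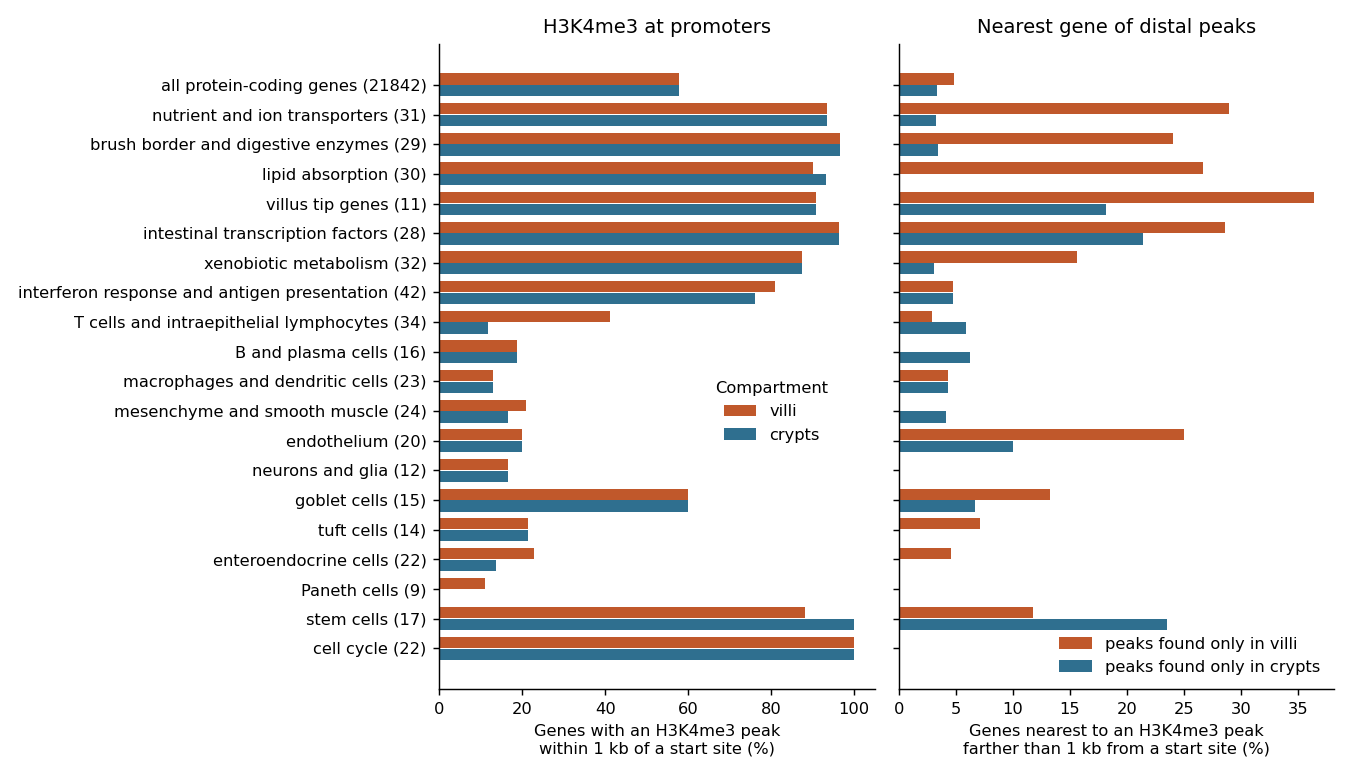
Left, share of the genes of each list (x axis, %) with an H3K4me3 peak within 1 kb of a start site in villi and in crypts. Right, share of the genes that were the nearest gene of a distal H3K4me3 peak found only in villi or only in crypts, with the number of genes of each list in brackets. T cell genes differed at promoters (14 against 4 of 34). Of 90 absorptive genes, 24 were nearest to villi-only and 2 to crypts-only distal peaks, against 4.81 and 3.37% of all genes. Shared distal peaks, not drawn, were nearest to 21 of the 90, with 12.4% of all genes.

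The 358 promoter peaks belonged to 357 genes (1.63% of 21866 protein-coding genes). For 270 of them (75.6%) no start site had a crypts H3K4me3 peak, and for 87 (24.4%) another start site did. In all, 277 genes (1.27%) had promoter H3K4me3 in villi alone, 7 of them through a villi peak shared with crypts elsewhere, and 232 in crypts alone.

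The list with the largest share of promoters marked in villi alone was that of T cells and intraepithelial lymphocytes. Of its 34 genes, 14 had promoter H3K4me3 in villi and 4 in crypts, and 10 (29.4%) had it in villi alone, against 1.27% of all genes. The 4 marked in both were Ccr9, Cd160, Tbx21 and Eomes, and 20 genes, Cd3d, Cd8b1, Cd4, Lck and Itgae among them, were marked in neither. The 10 cover the T cell receptor complex (Cd3e, Cd3g), the coreceptor Cd8a, the surface proteins Cd7 and Ptprc, the cytotoxic granule genes Gzma and Nkg7, the chemokine gene Ccl5, the cytokine receptor gene Il2rb and the transcription factor gene Runx3. B and plasma cell genes did not show this (3 of 16 in villi and 3 in crypts, none in villi alone), nor did genes of macrophages and dendritic cells (3 of 23 and 3). Calls at T cell genes thus differed between the preparations, and their part in the other results on villi-only peaks was not tested.

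The scores of the 10 T cell promoter peaks were low, from 10.2 at Il2rb to 21.9 at Ptprc (chr1:138173738-138175345). Cd3e (chr9:45008569-45009749) had 10.8, Cd3g (chr9:44978096-44980275) 11.0, Cd8a (chr6:71373664-71374492) 10.9 and Gzma (chr13:113100147-113100707) 14.3. With scores of 20 or more only Ptprc was left. The nearest crypts H3K4me3 peak was 3973 bp (Nkg7) to 272474 bp (Ptprc) away, and for 5 of the 10 (Cd3e, Cd3g, Cd8a, Il2rb, Nkg7) no crypts call between the neighbouring peaks had been left out. Unlike most promoter peaks, 9 of these had no H3K4me1 in villi and all 10 had none in crypts, the exception being Runx3 (703 bp in villi). H3K27me3 overlapped Cd3e (1668 bp) and Cd3g (1559 bp) in villi and not in crypts, and Runx3 in both (17348 and 15114 bp).

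**Figure D4:**
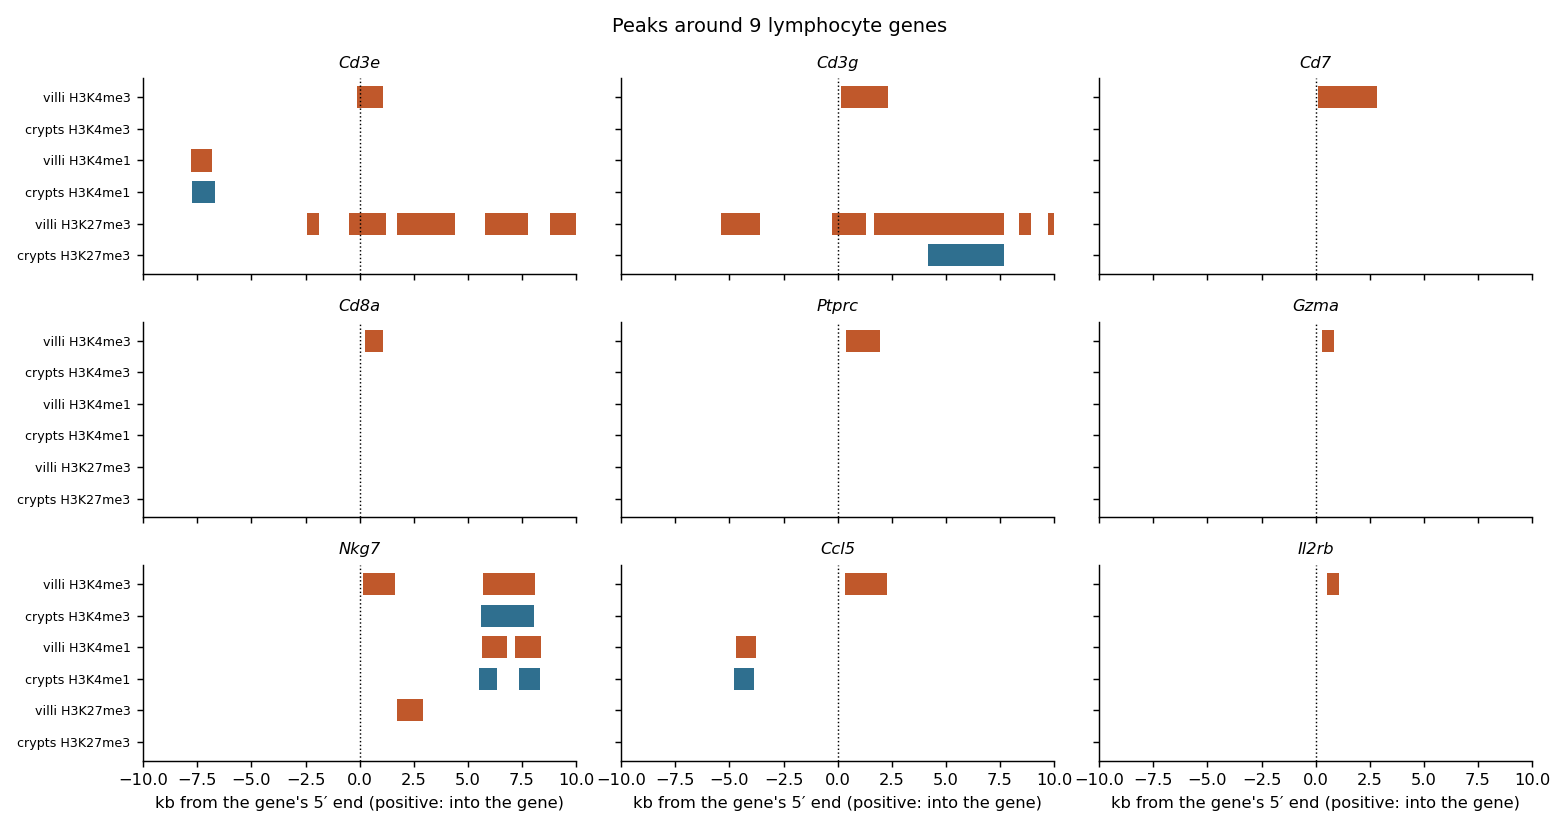
Called peaks of 3 marks in villi (orange) and crypts (blue) within 10 kb of the 5′ end of 9 lymphocyte genes, with distance in kb on the x axis and the lists on the y axis. Each gene has a villi H3K4me3 peak over or just inside its 5′ end and no crypts H3K4me3 peak there. Runx3 is not drawn because its peak lies at a start site far inside the gene.

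Further genes of blood cells had villi-only promoter peaks. They are examples picked from the 277 genes marked in villi alone after their values were seen, without a fixed list or a count. Rac2, a GTPase of blood cells, had a peak over its start site (chr15:78571872-78572913, score 22.6). Itgb7, the integrin chain that pairs with CD103 on intraepithelial lymphocytes, had one at 51 bp (score 11.7), and Lat, an adaptor of T cell receptor signalling, one over its start site (score 10.2). Laptm5, a lysosomal protein of blood cells, had one at 22 bp (score 16.4). None of these 4 peaks overlapped H3K4me1 in either compartment. In the Gimap cluster, GTPases of lymphocytes, Gimap5 (score 21.9), Gimap7 (14.7), Gimap4 (14.3) and Gimap3 (12.3) each had one. Members of this family are related in sequence, and whether reads were assigned correctly among them was not tested.

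The remaining promoters marked in villi alone with the highest scores were of mixed function. Sprr2a2 had the highest (chr3:92250720-92251330, score 63.2) and lay 168693 bp from the nearest crypts H3K4me3 peak, with no peak of H3K4me1 or H3K27me3 in either compartment. It belongs to a family of near-identical copies. Sgk2, a kinase that acts on ion transport, followed (chr2:162987151-162988741, score 59.3), with H3K4me1 of 2884 bp in villi and 4375 bp in crypts. Susd2, a membrane protein with a sushi domain, had a peak of 2047 bp (score 45.5) with H3K4me1 in both (2225 and 3324 bp). Bcl6b, a transcriptional repressor (score 47.9), had H3K4me1 (5229 and 6014 bp) and H3K27me3 (1430 and 1228 bp) in both. Clca4a (3308 bp wide, score 38.3), of the calcium-activated chloride channel regulator family, and Slfn4 (score 33.7), of the interferon-inducible Schlafen family, had neither mark. Apol9a (score 38.3) had H3K4me1 in villi alone (458 bp). Outside this group, the widest villi-only peak was at a start site of Itpk1, an inositol phosphate kinase gene that also had promoter H3K4me3 in crypts (chr12:102695390-102700292, 4903 bp, score 20.6, 1796 bp from a crypts peak).

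Interferon-response genes were represented by Rsad2 (score 22.6), Gbp6 (21.9) and Ifit1 (19.0), antiviral or GTPase genes, of which the first 2 were marked in villi alone (2 of 42, 4.76%, against 1.27% of all genes). Of that list 34 of 42 promoters had H3K4me3 in villi and 32 in crypts. H3K4me1 was present in both compartments at all 3, and its percentile was 57.0 in villi and 57.9 in crypts at Rsad2, 75.4 and 71.1 at Gbp6 and 65.2 and 24.7 at Ifit1, so that of these only Ifit1 differed widely. Markers of other lineages with promoter H3K4me3 in villi alone were Bcas1 of goblet cells (1 of 15, 6.67%), Ptgs1 of tuft cells (1 of 14, 7.14%), Cpe and Pax6 of enteroendocrine cells (2 of 22, 9.09%), Ang4 of Paneth cells (1 of 9, 11.1%), Kdr of endothelium (1 of 20, 5.00%) and Col1a1 of mesenchyme (1 of 24, 4.17%), against 1.27% of all genes. Col1a1 had it through a villi peak that overlapped a crypts peak, so it is not among the villi-only peaks. H3K27me3 overlapped the peaks at Cpe (2558 bp in villi and 2777 bp in crypts), Ptgs1 (2300 and 1126 bp), Pax6 and Kdr in both compartments. At Bcas1 and Ang4 it was called in neither. In crypts alone H3K4me3 was found at Spink4 of goblet cells, Pou2f3 of tuft cells, Egfl7 of endothelium and the stem cell genes Aqp4 and Olfm4. No gene of the stem cell or cell cycle lists had a villi-only promoter peak. With 1 or 2 genes a list, these shares rest on single calls. Of the 20 endothelial genes, 4 had promoter H3K4me3 in villi and 4 in crypts, and 5 (25.0%) were nearest to a distal villi-only peak, namely Cldn5, Egfl7, Flt4, Sox17 and Vwf. This share was close to those of the absorptive lists, against 4.81% of all genes, with 2 (10.0%) nearest to a crypts-only and 5 (25.0%) to a shared distal peak. The part of endothelial cells in the villi-only peaks was not tested.

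H3K27me3 divided the promoter peaks into 2 kinds. Of the 358, 159 (44.4%, 39.4 to 49.6%) overlapped it in villi and 139 (38.8%, 33.9 to 44.0%) in crypts, against 11.4 and 9.88% of shared promoter peaks. The crypts-only promoter peaks had 41.2 and 35.4%, and shared promoter peaks with a score under 30 had 52.1 and 45.8%. The high share was therefore common to weak promoter peaks and not particular to those found in villi. Promoter peaks with H3K27me3 in villi had a median GC content of 66.3% and a CpG ratio of 0.780, against 52.2% and 0.319 without it. Among all 358, 99 (27.7%) had H3K4me1 and H3K27me3 in both compartments, 107 (29.9%) had H3K4me1 alone in both, and 75 (20.9%) had none of these.

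The promoter peaks with H3K27me3 differed from the rest in H3K4me1. Of 162 promoter peaks with H3K27me3 in either compartment, H3K4me1 was called in both at 111, in villi alone at 31 (19.1%) and in crypts alone at 1 (0.617%). At the 111, H3K4me1 stood at a median percentile of 74.0 in villi and 40.8 in crypts, and it ranked higher in villi at 98 of them (88.3%, 81.0 to 93.0%). At the 107 promoter peaks without H3K27me3 and with H3K4me1 in both, the medians were 81.1 and 71.9, and 66 (61.7%, 52.2 to 70.3%) ranked higher in villi. Shared promoter peaks with H3K27me3 and a score under 30 also ranked higher in villi, at 72.9 against 54.5 and at 299 of 411 (72.7%, 68.2 to 76.8%), and crypts-only promoter peaks with H3K27me3 at 59.3 against 50.6 and at 64 of 100 (64.0%, 54.2 to 72.7%). The direction was thus shared by weak promoter peaks with H3K27me3, and the interval of the villi-only peaks lay above both others. A rank places a peak within its own list and does not measure the amount of mark. From spike-in scaled signal, the paper reports that the marks other than H3K27me3 fell strongly in villi at their sites.

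**Figure D5:**
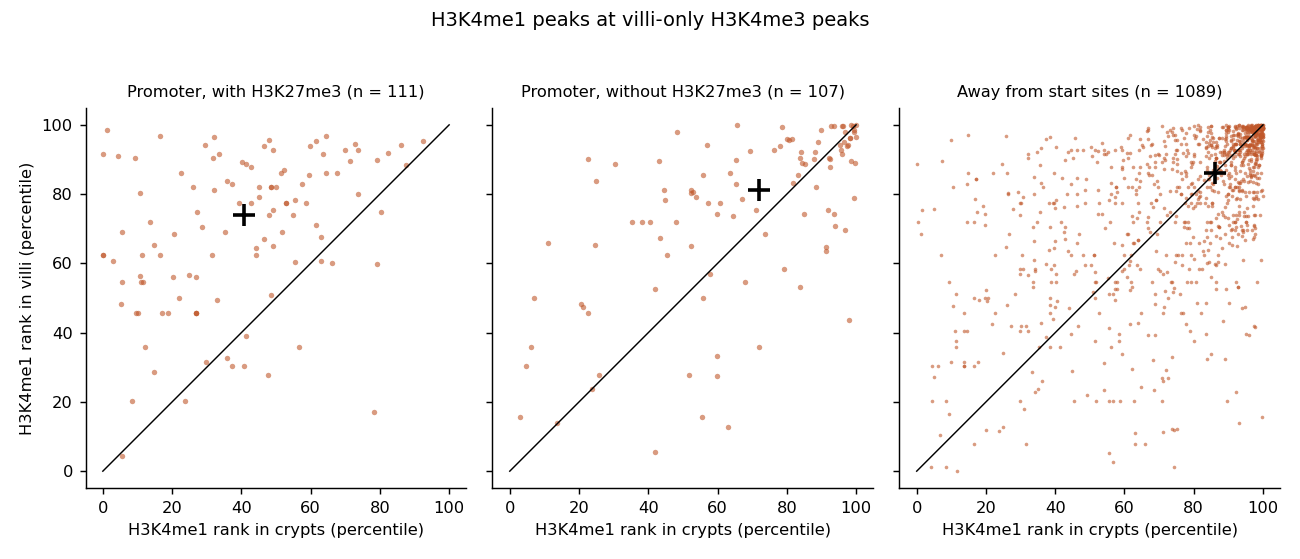
Percentile of the H3K4me1 peak within its list in villi (y axis) against crypts (x axis) at villi-only H3K4me3 peaks with H3K4me1 in both compartments. Points are H3K4me3 peaks, the line marks equal rank and the cross the medians. With H3K27me3 at promoters the cross lies at 40.8 and 74.0, and for distal peaks it lies on the line.

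Genes of these H3K27me3 promoters included the regulators of development Pax6, Lhx2 and Sox2, given as examples. The share of such genes among these promoters was not counted. Pax6 (chr2:105669547-105670321, score 22.6) lay in H3K27me3 of 22934 bp in villi and 35260 bp in crypts, with H3K4me1 of 2406 and 1981 bp. Lhx2 (chr2:38350754-38351512, score 24.0) lay in H3K27me3 of 25502 and 25632 bp, and Sox2 (chr3:34649532-34649970, score 11.7) in 29391 and 5110 bp. Map1b (score 40.7) lay in 5407 and 4342 bp, and its H3K4me1 peak was 1879 bp wide in villi and 1012 bp in crypts. Igf2, an imprinted growth factor gene (score 39.1), lay in 5544 and 2745 bp, and Kdr, a VEGF receptor gene (score 24.0), in 7177 and 6468 bp. Foxp2, a transcription factor gene (score 30.7), had H3K4me1 in villi alone (609 bp) and H3K27me3 in both (3729 and 2038 bp).

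H3K27me3 called in 1 compartment at a promoter peak was rare. It was in villi alone at 23, and the highest of them were Cercam (score 37.2, H3K27me3 1349 bp), S1pr5 (35.0, 2186 bp), Asphd1 (26.5, 3653 bp), 2410004P03Rik (25.5, 710 bp) and Zbtb10 (21.9, 4307 bp). S1pr5 is a receptor for sphingosine 1-phosphate and Zbtb10 a zinc finger repressor. It was in crypts alone at 3, namely a start site of Nrxn2, a synaptic adhesion gene (chr19:6427440-6428009, score 19.0, H3K27me3 5746 bp), Cntfr, a cytokine receptor gene (score 12.8, 1042 bp), and Gpr75, a receptor gene (score 10.0, 1161 bp). Another start site of Nrxn2 (score 41.9) carried H3K27me3 in both, of 3365 and 4683 bp.

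The repressive mark H3K9me3 overlapped 14 villi-only peaks (0.880%), each in both compartments, against 0.0520% of shared peaks in villi and 0.0715% in crypts. Of these, 11 lay within chr9:3001457-3036705, an interval at the start of the assembled chromosome 9 with predicted genes such as Gm10717 and Gm10720. The others lay at Gm21738, at the imprinted gene Mest and over a ribosomal RNA gene on chromosome 17 (chr17:39847329-39848710), with Mest named after its values were seen. The aligner reported 1 position for each read pair, so reads from repeated sequence can fall at any of its copies. Without these 14 peaks 266 genes had promoter H3K4me3 in villi alone. H3K9me2 overlapped 2 villi-only peaks in villi and 0 in crypts.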

How the data were processed

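ChIP-seq with spike-in (ChIP-Rx, in which fly chromatin is added for scaling) was done on crypts and villi, with 1 library per compartment and mark. Reads were aligned by the authors with Bowtie 1.1.2 (mouse build mm10, plus the fly genome), duplicates were removed and peaks were called with MACS2 2.1.1 at a p-value of 1e-10. The deposited peak lists give positions on mm10 and a score. It was read as the −log10 p-value of the authors' caller, and a q-value could not be told from it. Scores carry no spike-in scaling and were ranked only within a list. Depth is unknown, since read numbers are not in the lists.

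Overlaps (1 bp or more), distances to protein-coding start sites of GENCODE M21 and nearest genes were computed with Python 3.11.15, pandas 2.3.3 and NumPy 2.4.6, checked against bedtools 2.31.1 and tested on simulated data. Sequences were read with pysam 0.24.0, intervals are 95% Wilson intervals (SciPy 1.17.1) for counting error alone, and adjacent peaks may depend on each other. Figures were drawn with Matplotlib 3.10.9. Distal means more than 1 kb from a start site.

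The members, the 19 gene lists and the 12 motifs were chosen with earlier results of these data known. Genes were named where they were listed and had a member at the promoter, or were at the highest, widest or edge members or at the highest members with marks in 1 compartment. Listed genes nearest to distal members are also named, and genes chosen after their values were seen are marked as such. The inputs and signal tracks were not used here. Alternatives covered overlap, window, score, chromosomes and peaks with calls left out. H3K4me1 ranks, the comparisons at scores under 30, CpG content by score and the exclusion of H3K9me3 peaks were added after seeing the data.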

Additional observations from a re-analysis of the deposited data

How the results depend on the processing

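No paired analysis was possible because there was 1 library per compartment and mark. Among the alternative values, 36 stayed within 1.5 times the main count or within the 95% interval of the main share, and 21 did not. The cause was not tested for shifts other than those in counts that follow from fewer peaks. With scores of 20 or more, 307 peaks were villi-only, with 26.7% at promoters, H3K4me1 in villi at 90.2% and H3K27me3 in crypts at 10.7%. Then 67 genes had promoter H3K4me3 in villi alone, 1 T cell gene among them. Distal peaks were nearest to 8 absorptive genes (8.89%), against 0.980% of all genes. Where no crypts call was left out, 913 peaks remained, with 18.5% at promoters and H3K27me3 at 10.3% in villi and 8.21% in crypts. There were 129 genes in villi alone and 5 T cell genes, and distal peaks were nearest to 16 absorptive genes (17.8%), against 3.04% of all genes. The promoter share was 20.2% in a narrower window, 40.9% at 5 kb and 32.6% with every biotype. When at least 50% of the peak had to be covered, H3K4me1 was at 86.0% in villi and 82.2% in crypts. Within 1 kb, H3K4me1 in villi was at 89.8% and H3K27me3 at 16.6% in villi and 14.5% in crypts. The alternatives for the T cell and absorptive genes, that of no call left out for genes in villi alone, and the removal of H3K9me3 peaks were chosen after seeing the data. Most villi-only peaks lie near the calling threshold, so depth, which is unknown, limits what their absence from crypts shows.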
